A study of Mus musculus with 2 samples.

Results

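The mitochondrial solute carriers, their companion channels and the ATP synthase were examined in parietal cells, which secrete the acid of the stomach. Members were the protein-coding genes whose GENCODE M21 symbol begins with Slc25a and a number or with Atp5 (Atp5s excepted), or is Ucp1, Ucp2, Ucp3, Mpc1, Mpc2, Vdac1, Vdac2 or Vdac3. By this rule 71 of the 38087 genes in the deposited tables were members: 47 carriers of the Slc25 family, 16 ATP synthase genes and 8 of the remaining kinds. The cells had been sorted from stomachs of C57BL/6 mice given a high fat diet (HFD) and of control mice of the same strain. No genetic change is labelled in either group, and ages, feeding time, numbers of mice and sorting markers are not stated in the labels. Total RNA freed of ribosomal RNA was sequenced as 1 library for HFD and 1 library for control, called HFD cells and control cells below. A difference between the libraries therefore has no replicate check and no test, and differences between mice, sorts or library preparations cannot be told apart from diet.

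The ATP synthase is the rotary enzyme of the inner mitochondrial membrane that makes ATP as protons flow back into the matrix. Its products and substrates cross that membrane through the Slc25 carriers, which exchange ADP for ATP and bring in phosphate, amino acids, carboxylates, cofactors and metals, while pyruvate enters through the Mpc1 and Mpc2 carrier and small metabolites pass the outer membrane through the VDAC channels. Uncoupling proteins are Slc25-type carriers, of which Ucp1 lets protons return without making ATP. Parietal cells are known for their dense mitochondria, which supply the ATP that the gastric proton pump consumes.

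Values are RPKM (reads per kilobase of gene, divided by library depth in M reads), with genes at or below 1 RPKM listed at 0. The spacing of low values gave an estimated depth of 25.49 M reads in HFD cells and 9.84 M reads in control cells. At these depths RPKM times exon length summed over annotated genes to 28.2 M reads in HFD cells and 11.2 M in control cells, more than the depths themselves, so estimated reads and their intervals are approximate. The proton pump gene Atp4a stood at 4997 RPKM in HFD cells and 4324 RPKM in control cells, and all 7 parietal markers were listed in both. Summed over these 7 the level was 12417 RPKM in HFD cells and 9695 RPKM in control cells; 6 were higher in HFD cells, with ratios from 1.16 for Atp4a to 2.96 for Aqp4, and Kcne2 was lower (0.907). Markers of other gastric cells were listed as well: summed over 3 chief cell markers the level was 45654 RPKM in HFD cells and 102380 RPKM in control cells, over 4 pit cell markers 33326 RPKM in HFD cells and 11840 RPKM in control cells, and over 5 endocrine markers 1210 RPKM in HFD cells and 8284 RPKM in control cells. Of the chief cell markers 2 of 3 were lower in HFD cells (not Bhlha15, ratio 1.22), with nearly the whole sum from Pgc. Of the pit cell markers 3 of 4 were higher (not Tff1, 0.986), and of the endocrine markers 4 of 5 were lower (not Gast, 1.16). Both neck cell markers were slightly lower in HFD cells (Muc6 0.923, Tff2 0.881). They summed to 7494 RPKM in HFD cells and 8500 RPKM in control cells. Markers of fibroblasts (42.5 RPKM in HFD cells, 112 RPKM in control cells) and smooth muscle (20.9 RPKM in HFD cells, 159 RPKM in control cells) were lower in HFD cells for 4 of 4 and 4 of 4 genes, 5 pancreatic acinar markers were all at 0 in HFD cells and summed to 420 RPKM in control cells, and all 5 erythroid markers were lower in HFD cells (22.5 RPKM in HFD cells, 64.8 RPKM in control cells). Of 5 leukocyte markers Ptprc, Cd3e and Cd79a were at 0 in both libraries, Cd74 stood at 14.8 RPKM in HFD cells and 5.11 RPKM in control cells, and Lyz2 was at 0 in HFD cells and 1.35 RPKM in control cells. The part of these cells in the results below was not tested, and fewer cells of a type cannot be told apart from less RNA per cell.

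Of the 71 members, 60 were listed in at least 1 library and 55 in both, and the 60 went in both directions. On the log2(RPKM + 1) scale, 33 were higher and 27 lower in HFD cells, and the median difference was 0.11. Over the 11976 protein-coding genes listed in either library the median was -0.11, with 44% higher and 56% lower. Over 2-fold higher in HFD cells were 8 members, where 8.02% of protein-coding genes passed that fold, and over 2-fold lower were 7 members, where 20.1% did. Of those 7, 4 were listed at 0 in HFD cells and passed by construction, as did 1 of the 8 listed at 0 in control cells. Ratios below are of RPKM without a pseudocount, with approximate 95% intervals from estimated reads that cover counting error only and say nothing of variation between mice. The whole interval lay above 1 for 28 of the 55 members listed in both and below 1 for 21, against 37.8% and 42.1% of protein-coding genes. Intervals that leave out 1 were thus common in both directions among protein-coding genes at large. The split depends on scaling. With the libraries set to equal totals without the 20 most abundant genes, 16 of the 60 were higher, with a median of -0.44. With equal totals over protein-coding genes 39 were higher, with a median of 0.39. The median of protein-coding genes moved too, to -0.61 and 0.14 under these scalings.

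Levels differed far more between members than between libraries. Across the 55 members listed in both, log2 RPKM in HFD cells followed that in control cells with Pearson's r of 0.91 and Spearman's rho of 0.91, a correlation across genes of 2 single libraries. At least 100 RPKM was reached by 10 members in HFD cells and 6 in control cells, and under 10 RPKM were 20 of the members listed in HFD cells and 29 of those listed in control cells. The 4 highest in HFD cells were Atp5a1, Atp5b, Atp5mpl and Slc25a5, and the 4 highest in control cells were Atp5b, Atp5a1, Slc25a5 and Atp5d. Counting intervals of neighbours in the order of levels overlapped for 35 of 55 neighbouring pairs in HFD cells and 45 of 58 in control cells, so most adjacent places are not distinguishable. Summed over members, RPKM came to 2868 in HFD cells and 2687 in control cells, a ratio of 1.07. The members held 0.99% of the RPKM of protein-coding genes in HFD cells and 0.757% in control cells. That protein-coding sum itself differed, at 289707 RPKM in HFD cells and 355045 RPKM in control cells. Of it, Pgc alone made up 45624 RPKM in HFD cells and 102292 RPKM in control cells.

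**Figure D1:**
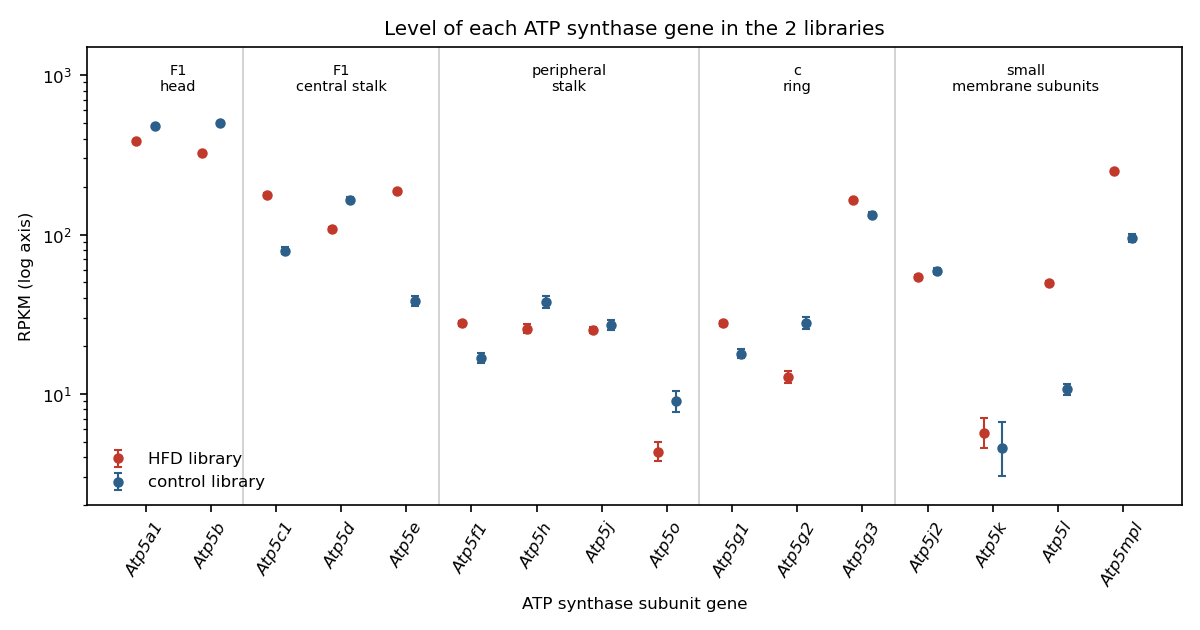
Level of the 16 ATP synthase genes in RPKM (log axis) in HFD cells (red, left of each pair) and control cells (blue, right), grouped by place in the enzyme, with bars for approximate 95% counting intervals. The widest gaps are those of Atp5e at 187 against 38.2 RPKM and Atp5l at 49.8 against 10.7 RPKM, both higher in HFD cells, while Atp5a1 and Atp5b stand lower there.

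The ATP synthase genes did not move as one block. Of 16 subunit genes, all listed in both libraries, 8 were higher and 8 lower in HFD cells, and their log2(RPKM + 1) differences had a median of 0.08, a lowest value of -1.07 and a highest of 2.26. The median was -0.49 when scaled without the 20 most abundant genes, where that of protein-coding genes was -0.61. The counting interval lay above 1 for 7 and below 1 for 7, against 37.8% and 42.1% of protein-coding genes listed in both. Of measured protein-coding genes 44% were higher and 56% lower in HFD cells. Differences spread with an SD across genes of 1.02 on the log2 scale, with pseudogene copies, described below, left out. The SD was 0.96 over all 11976 measured protein-coding genes and 0.81 over the 6852 in the same range of mean level. Over 45 complex I subunit genes it was 0.94. No test of these spreads was possible. As plotted by place in the enzyme, the subunit levels ranged over 88.4-fold in HFD cells and 109-fold in control cells. RPKM is per annotated length, however, and the length used by the authors is not given. The range also depends on copies. Atp5o was lowest in HFD cells, with 93.5% of the estimated reads of gene and copy on the copy. Atp5k was lowest in control cells, with 89.5% there.

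Both genes of the catalytic head were lower in HFD cells. Atp5a1, the alpha subunit, stood at 385 RPKM in HFD cells and 481 RPKM in control cells, 1.25 times lower (interval 1.23 to 1.28). Atp5b, the beta subunit that carries the catalytic sites, stood at 322 RPKM in HFD cells and 498 RPKM in control cells, 1.55 times lower (1.52 to 1.57). A gene with a coding stretch resembling Atp5b, Gm4707 on chromosome 17, stood at 152 RPKM in HFD cells and 169 RPKM in control cells.

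The genes of the central stalk, the rotor shaft inside the head, went apart. Atp5e, the epsilon subunit (ENSMUSG00000016252, mm10 chromosome 2, 174461072 to 174464105), stood at 187 RPKM in HFD cells and 38.2 RPKM in control cells, a ratio of 4.89 (4.52 to 5.31), the highest of all 55 members listed in both. Atp5c1, the gamma subunit, stood at 177 RPKM in HFD cells and 79.0 RPKM in control cells, a ratio of 2.24 (2.12 to 2.37). Atp5d, the delta subunit, was 1.52 times lower (109 RPKM in HFD cells, 165 RPKM in control cells). Atp5c1 and Atp5e were thus on one side of 1 and Atp5d on the other.

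In the peripheral stalk, which holds the head still against rotation, Atp5f1 (subunit b) was the 1 gene of 4 that was higher, at 27.8 RPKM in HFD cells and 16.9 RPKM in control cells, a ratio of 1.65 (1.51 to 1.79). Atp5h (subunit d) stood at 25.7 RPKM in HFD cells and 37.9 RPKM in control cells. Atp5o, the oligomycin sensitivity-conferring protein at the top of the stalk, stood at 4.35 RPKM in HFD cells and 8.97 RPKM in control cells, 2.06 times lower (1.68 to 2.53). The directions of Atp5h and Atp5o depend on pseudogene copies, described below. Atp5f1 has a copy too, which held 68.8% of the estimated reads of gene and copy in HFD cells and 68.0% in control cells. Atp5j (coupling factor F6) was nearly equal, at 25.2 RPKM in HFD cells and 27.0 RPKM in control cells, with an interval of the ratio from 0.862 to 1.02.

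The membrane part held both of the other genes over 2-fold higher. Atp5l (subunit g, of the dimer interface; ENSMUSG00000038717, mm10 chromosome 9, 44912557 to 44920742) stood at 49.8 RPKM in HFD cells and 10.7 RPKM in control cells, a ratio of 4.67 (4.32 to 5.06). Atp5mpl, a small proteolipid bound to the enzyme, stood at 249 RPKM in HFD cells and 95.1 RPKM in control cells, a ratio of 2.62 (2.46 to 2.79). Atp5j2 (subunit f) stood at 53.9 RPKM in HFD cells and 59.1 RPKM in control cells, a ratio of 0.911. Atp5k (subunit e) stood at 5.70 RPKM in HFD cells and 4.59 RPKM in control cells. It rested on about 89.5 estimated reads in HFD cells and 27.8 in control cells, and its ratio of 1.24 had an interval of 0.804 to 1.97.

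The genes Atp5g1, Atp5g2 and Atp5g3 encode the c subunit of the membrane rotor ring; their mature proteins are known to be identical, and the precursors differ in the presequence for import. Atp5g3 was the main source in both libraries, at 164 RPKM in HFD cells and 133 RPKM in control cells. Atp5g1 had a ratio of 1.55 (27.7 RPKM in HFD cells, 17.9 RPKM in control cells), and Atp5g2 was 2.19 times lower (1.93 to 2.48; 12.8 RPKM in HFD cells, 27.9 RPKM in control cells). Within the trio, Atp5g2 held 6.25% of RPKM in HFD cells and 15.6% in control cells. Atp5g3 held 80.2% in HFD cells and 74.4% in control cells. No scaling of a library can alter these shares, but they leave out pseudogene copies, described below. Of the estimated reads of Atp5g2 and its copies, 59.4% lay on copies in HFD cells and 54.5% in control cells. For Atp5g1 this was 48.0% in HFD cells and 51.1% in control cells, and Atp5g3 had no copy.

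The genome carries processed pseudogenes, intronless copies of the messenger RNA of many mitochondrial genes, and the deposited tables list these under their own identifiers. A pseudogene was taken as a copy when at least 100 bases matched a member's coding sequence at 90% identity or more. Unprocessed pseudogenes were included, as for Slc25a36 and Vdac3. By this definition 36 copies of 14 members were among the identifiers, 28 of them listed, and 9 of the 16 ATP synthase genes had a listed copy. The following coding sequences show how close these copies are, written from the start codon, 5′ to 3′, with capitals at the bases in which gene and copy differ. Atp5k lies on the minus strand of chr5:108433244-108434448 and its copy Atp5k-ps2 on the minus strand of chr2:173984482-173984691 (mm10, GENCODE M21 transcripts). The first 150 bases are printed, of which 5 differ.
Atp5k: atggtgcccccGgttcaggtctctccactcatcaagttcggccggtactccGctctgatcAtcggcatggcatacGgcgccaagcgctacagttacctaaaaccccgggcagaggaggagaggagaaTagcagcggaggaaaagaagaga
Atp5k-ps2: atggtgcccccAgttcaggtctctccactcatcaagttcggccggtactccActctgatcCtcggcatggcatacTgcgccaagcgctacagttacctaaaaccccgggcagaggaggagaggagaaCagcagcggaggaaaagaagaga
Atp5o lies on the minus strand of chr16:91925214-91931687 and its copy Gm5436 on the minus strand of chr12:84258331-84258973. The first 210 bases differ at 7 places, and the whole match was 97.0% over 642 bases.
Atp5o: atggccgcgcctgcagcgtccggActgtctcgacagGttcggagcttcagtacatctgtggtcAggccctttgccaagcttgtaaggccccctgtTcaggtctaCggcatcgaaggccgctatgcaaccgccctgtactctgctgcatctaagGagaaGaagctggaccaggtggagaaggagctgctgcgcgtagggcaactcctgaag
Gm5436: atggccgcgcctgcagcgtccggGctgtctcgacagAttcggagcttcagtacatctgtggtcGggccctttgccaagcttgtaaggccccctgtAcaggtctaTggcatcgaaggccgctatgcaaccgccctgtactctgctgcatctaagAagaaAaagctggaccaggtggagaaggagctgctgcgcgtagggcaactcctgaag
Atp5l and its copy Gm10221, on the minus strand of chr5:24581554-24581862, share the whole aligned coding stretch at 100% identity, so the first 300 bases are printed once and hold no capital.
Atp5l and Gm10221: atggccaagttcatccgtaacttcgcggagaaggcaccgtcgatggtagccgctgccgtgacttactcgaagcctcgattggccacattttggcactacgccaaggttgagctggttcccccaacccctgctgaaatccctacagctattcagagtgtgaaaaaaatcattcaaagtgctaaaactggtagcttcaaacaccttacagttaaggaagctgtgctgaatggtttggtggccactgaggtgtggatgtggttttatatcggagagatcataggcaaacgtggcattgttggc

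For several members the copies held more of the estimated reads than the gene. Atp5k-ps2 stood at 190.3 RPKM in HFD cells and 114 RPKM in control cells, so that 91.9% of the reads of gene and copies together lay on the copy in HFD cells and 89.5% in control cells. For Atp5o the share on Gm5436 was 93.5% in HFD cells and 84.5% in control cells, and for Atp5h the share on its 3 copies was 87.4% in HFD cells and 78.6% in control cells. Gm10221 was listed at 656 RPKM in HFD cells and 227 RPKM in control cells, with no base that separates it from the matched part of Atp5l. Gm10221 has 309 bases and the exons of Atp5l 6443, and RPKM weights short genes. Of the estimated reads of Atp5l and its copies, 42.7% lay on copies in HFD cells and 54.5% in control cells. In all, 6 of the 14 members had over 50% of these reads on copies in both libraries.

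How reads that match gene and copy alike were assigned is not stated, and their origin cannot be told apart here. Adding the copies' reads to the gene, an alternative chosen after seeing the data, turned the direction for 3 of the 14 members. Atp5o then had a ratio of 1.16 (1.08 to 1.24) in place of 0.485, Atp5h 1.15 (1.10 to 1.21) in place of 0.678, and Slc25a5 0.969 (0.939 to 1.00) in place of 1.06. Atp5l kept a ratio of 3.71 (3.51 to 3.91), Atp5c1 had 2.67 (2.55 to 2.79), Atp5f1 1.69, Atp5k 1.62 and Atp5g2 0.513. With copies, 10 of the 16 ATP synthase genes were higher in HFD cells, the same number, 4, were over 2-fold higher, and the median was 0.25. Of measured protein-coding genes, without copies added, 44% were higher and 8.02% over 2-fold higher. Atp5e, Atp5mpl, Atp5d, Atp5a1, Atp5b, Atp5g3 and Atp5j had no pseudogene copy by this definition.

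**Figure D2:**
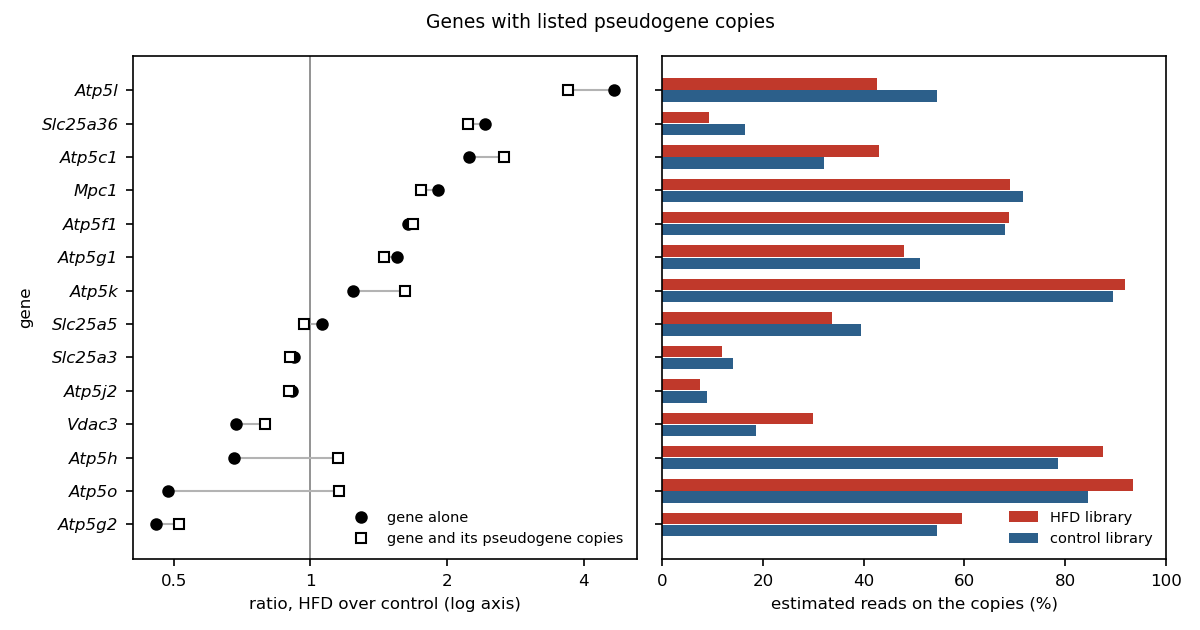
The left panel shows, for 14 genes with listed pseudogene copies, the ratio of the HFD to the control library (log axis) for the gene alone (filled circles) and for gene and copies together (open squares); the right panel shows the percentage of estimated reads on the copies in HFD cells (red, upper bar) and control cells (blue, lower bar). Atp5o, Atp5h and Slc25a5 cross 1 when copies are added, and Atp5l remains the highest at 3.71.

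The ADP/ATP exchangers and the phosphate carrier, which feed the ATP synthase, were among the most abundant carriers in both libraries. Slc25a5, the exchanger of most tissues, stood at 216 RPKM in HFD cells and 204 RPKM in control cells, a ratio of 1.06 for the gene alone. Slc25a4, the exchanger typical of heart and muscle, stood at 105 RPKM in HFD cells and 65.4 RPKM in control cells, a ratio of 1.60 (1.51 to 1.70). Slc25a4 thus held 32.7% of the pair's RPKM in HFD cells and 24.3% in control cells. Copies of Slc25a5 are left out of that share. They held 33.7% of the estimated reads of gene and copies in HFD cells and 39.4% in control cells. Slc25a31, the exchanger of the testis, was at 0 in both. Slc25a3, the phosphate carrier, stood at 46.0 RPKM in HFD cells and 49.9 RPKM in control cells, a ratio of 0.921 (0.881 to 0.964).

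Of the calcium-regulated carriers that exchange ATP-Mg for phosphate, Slc25a25 had the lowest ratio of the 55 members listed in both libraries, at 1.41 RPKM in HFD cells and 4.61 RPKM in control cells, 3.26 times lower (2.78 to 3.83). Slc25a24 had a ratio of 1.45 (10.1 RPKM in HFD cells, 6.98 RPKM in control cells) and Slc25a23 one of 0.776 (7.14 RPKM in HFD cells, 9.20 RPKM in control cells). Slc25a25 held 7.58% of the RPKM of these 3 genes in HFD cells and 22.2% in control cells. Their relative Slc25a41 was at 0 in both.

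Both subunit genes of the pyruvate carrier were higher in HFD cells by close to the same factor. Mpc1 stood at 9.12 RPKM in HFD cells and 4.79 RPKM in control cells, a ratio of 1.91 (1.53 to 2.39). Mpc2 stood at 19.6 RPKM in HFD cells and 9.72 RPKM in control cells, a ratio of 2.02 (1.86 to 2.19). The Mpc1 share of the pair was 31.8% in HFD cells and 33.0% in control cells. An Mpc1 exon overlaps the opposite-strand gene 4930506C21Rik, at 4.42 RPKM in HFD cells and 1.02 RPKM in control cells, and 69.0% of the reads of Mpc1 and its copy lay on that copy in HFD cells and 71.6% in control cells. With the copy the Mpc1 ratio was 1.75 (1.56 to 1.97).

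The VDAC channels of the outer membrane were led by Vdac1, at 69.1 RPKM in HFD cells and 64.0 RPKM in control cells, a ratio of 1.08 (1.02 to 1.14). Vdac2 stood at 16.0 RPKM in HFD cells and 18.1 RPKM in control cells, and Vdac3 at 13.2 RPKM in HFD cells and 19.2 RPKM in control cells, 1.46 times lower (1.35 to 1.58). Vdac1 held 70.3% of the RPKM of the 3 genes in HFD cells and 63.2% in control cells.

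Among the uncoupling proteins only Ucp2, the form found in many tissues, was listed. It stood at 153 RPKM in HFD cells and 136 RPKM in control cells, a ratio of 1.12 (1.10 to 1.15). Ucp1 of brown fat and Ucp3 of muscle were at 0 in both libraries, as were the other 3 brown fat markers Cidea, Elovl3 and Cox8b. The related carriers Slc25a30 and Slc25a14 were listed in control cells only, at 5.28 and 1.22 RPKM, and Slc25a27 in neither. Slc25a30 rested on 237 estimated reads in control cells and had the lowest difference of all measured members, -2.65 on the log2(RPKM + 1) scale.

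**Figure D3:**
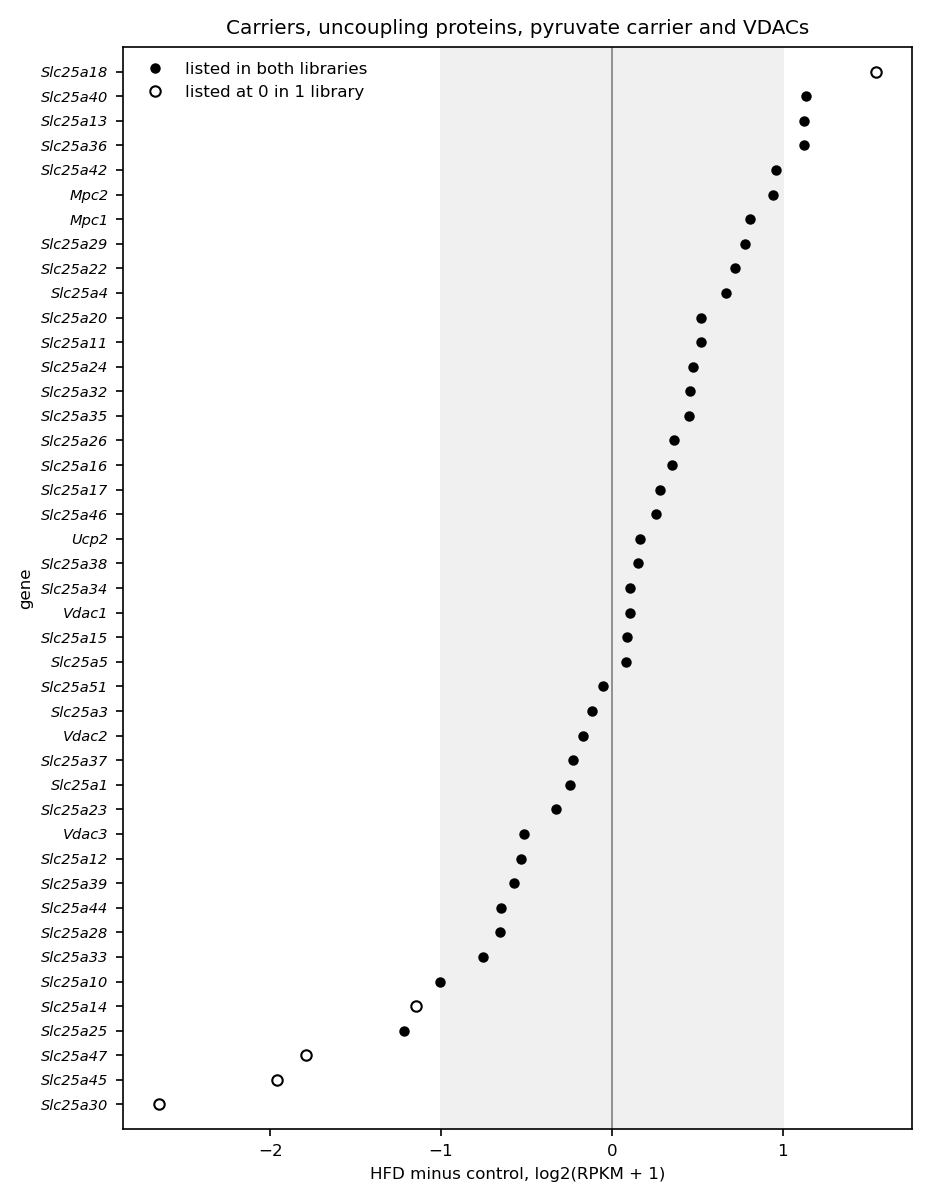
Difference of the HFD minus the control library on the log2(RPKM + 1) scale for 43 of the measured carriers, uncoupling proteins, pyruvate carrier genes and VDAC genes, ordered by value, with 1 measured carrier left out; filled circles are genes listed in both libraries, open circles genes listed at 0 in 1 of them, and the grey band marks differences within 2-fold. Values run from -2.65 for Slc25a30 to 1.55 for Slc25a18, both open circles.

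Carriers of carboxylates link the citric acid cycle to the cytosol. Slc25a11, the exchanger of oxoglutarate for malate, had a ratio of 1.45 (49.3 RPKM in HFD cells, 34.1 RPKM in control cells). Slc25a10, the dicarboxylate carrier that exchanges malate or succinate for phosphate, was 2.06 times lower (1.91 to 2.23), at 16.7 RPKM in HFD cells and 34.5 RPKM in control cells. Slc25a1, the citrate carrier that exports acetyl units for fatty acid synthesis, stood at 32.5 RPKM in HFD cells and 38.8 RPKM in control cells, a ratio of 0.839 (0.772 to 0.912). Slc25a21, the carrier of oxoadipate, was at 0 in both. Slc25a20, which carries acylcarnitines into the matrix for fatty acid oxidation, had a ratio of 1.47 (1.34 to 1.62), at 17.5 RPKM in HFD cells and 11.9 RPKM in control cells.

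The 2 aspartate/glutamate carriers of the malate-aspartate shuttle stood in opposite order in the libraries. Slc25a13 (citrin, the form known from liver) stood at 16.6 RPKM in HFD cells and 7.09 RPKM in control cells, a ratio of 2.35 (2.06 to 2.68). Slc25a12 (aralar, the form known from brain and muscle) stood at 5.91 RPKM in HFD cells and 8.99 RPKM in control cells, 1.52 times lower (1.38 to 1.68). Slc25a13 held 73.8% of the pair's RPKM in HFD cells and 44.1% in control cells. By estimated reads its share was 59.3% (exact 95% interval 57.4% to 61.1%) in HFD cells and 29.0% (26.0% to 32.0%) in control cells.

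Of the other amino acid carriers, the glutamate carrier Slc25a22 had a ratio of 1.76 (10.2 RPKM in HFD cells, 5.78 RPKM in control cells) and Slc25a29, a carrier of basic amino acids, one of 2.02 (4.86 RPKM in HFD cells, 2.41 RPKM in control cells). Slc25a44, the carrier of branched-chain amino acids, was 1.66 times lower (6.15 RPKM in HFD cells, 10.2 RPKM in control cells). The ornithine carrier Slc25a15 and the glycine carrier Slc25a38 had ratios of 1.07 (0.970 to 1.19) and 1.13 (0.960 to 1.34), at 10.2 and 8.28 RPKM in HFD cells and 9.51 and 7.34 RPKM in control cells. Slc25a18, the second glutamate carrier, was listed at 1.92 RPKM in HFD cells and at 0 in control cells. An exon of Slc25a18 overlaps Atp6v1e1 on the opposite strand, which stood at 67.0 RPKM in HFD cells and 75.0 RPKM in control cells, and the sources do not state whether reads were counted by strand.

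Cofactor and nucleotide carriers were higher in HFD cells for 6 of 9 genes, where 44% of measured protein-coding genes were. The median was 0.35, and -0.17 when scaled without the 20 most abundant genes. For protein-coding genes these medians were -0.11 and -0.61. Slc25a36 and Slc25a33 both carry pyrimidine nucleotides. Slc25a36 stood at 11.7 RPKM in HFD cells and 4.85 RPKM in control cells, a ratio of 2.42 (2.19 to 2.68), and Slc25a33 at 2.71 RPKM in HFD cells and 5.24 RPKM in control cells, 1.94 times lower (1.47 to 2.53). The Slc25a36 share of the pair was 81.3% in HFD cells and 48.1% in control cells, a difference of 33.2 percentage points. By estimated reads, which weight the longer gene more, its share was 95.7% in HFD cells and 82.5% in control cells. The copy of Slc25a36 is left out of these shares. It held 9.32% of the estimated reads of gene and copy in HFD cells and 16.5% in control cells. Slc25a42, the coenzyme A carrier, had a ratio of 2.23 (7.65 RPKM in HFD cells, 3.43 RPKM in control cells).

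Of the remaining cofactor carriers, 5 had ratios closer to 1. Slc25a51, the NAD carrier, was nearly equal (16.9 RPKM in HFD cells, 17.6 RPKM in control cells), with an interval of the ratio from 0.893 to 1.04. Slc25a17 of the peroxisome stood at 24.1 RPKM in HFD cells and 19.7 RPKM in control cells. Slc25a16, Slc25a26 (S-adenosylmethionine) and Slc25a32 (folate) had ratios of 1.33, 1.35 and 1.47, at 7.54, 6.05 and 5.97 RPKM in HFD cells and 5.68, 4.47 and 4.06 RPKM in control cells.

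**Figure D4:**
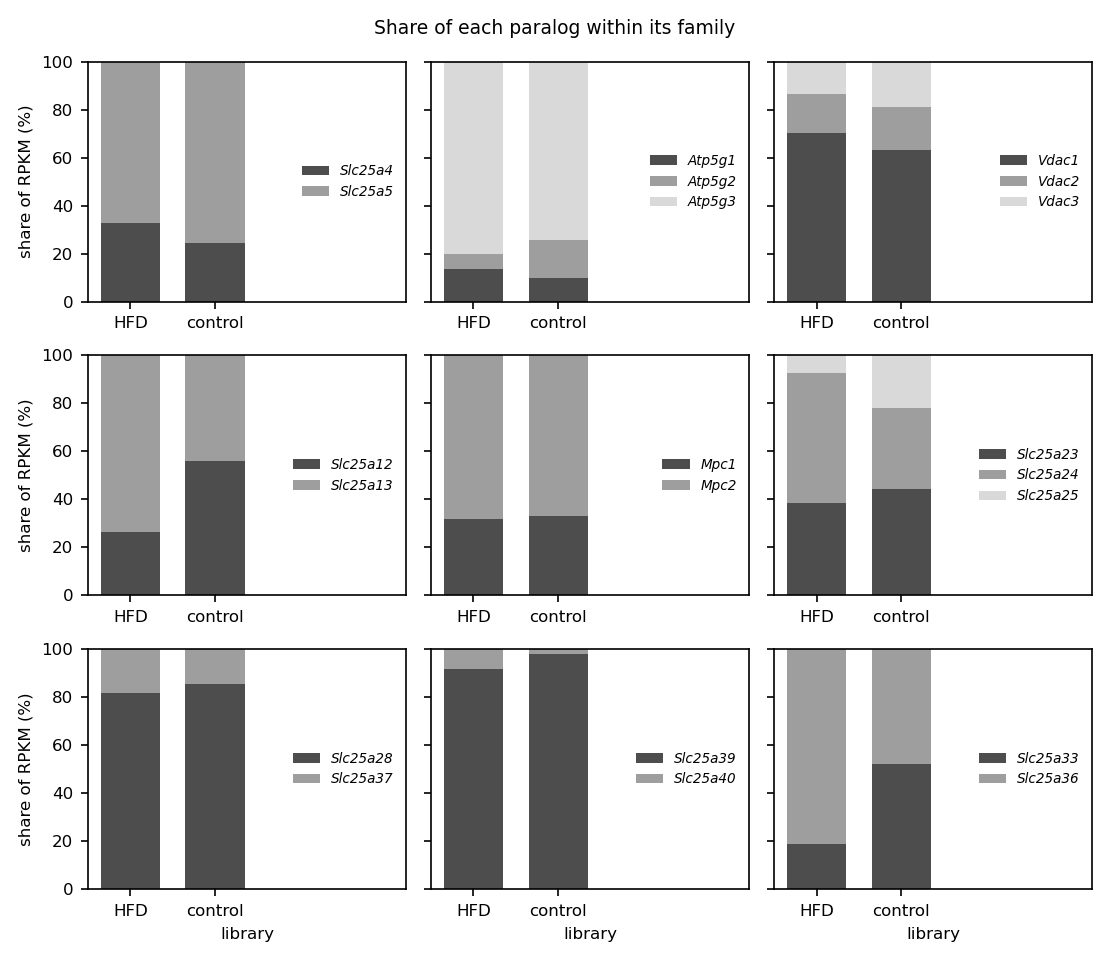
Share of summed RPKM held by each paralog in 9 families, as stacked bars from 0 to 100%, in HFD cells (left bar) and control cells (right bar). Pseudogene copies are left out. The share of Slc25a13 against Slc25a12 is 73.8% in HFD cells and 44.1% in control cells, and that of Slc25a36 against Slc25a33 is 81.3% and 48.1%, whereas Mpc1 and Mpc2 keep nearly the same shares.

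The iron and glutathione carriers were lower in HFD cells for 3 of 4 genes, where 56% of measured protein-coding genes were lower. Slc25a39, a glutathione carrier, stood at 66.8 RPKM in HFD cells and 99.9 RPKM in control cells, 1.50 times lower (1.43 to 1.57). Its paralog Slc25a40 went the other way with a ratio of 2.72 (2.34 to 3.20), the highest among carriers listed in both libraries, at 6.19 RPKM in HFD cells and 2.27 RPKM in control cells. Its share of the pair's RPKM was 8.48% in HFD cells and 2.22% in control cells. The mitoferrins, which import iron, stood at 10.1 RPKM in HFD cells and 16.5 RPKM in control cells for Slc25a28 and at 2.28 RPKM in HFD cells and 2.84 RPKM in control cells for Slc25a37, a paralog known from red cell precursors.

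Of 9 carriers whose substrate is unsettled or of another kind, Slc25a35 had a ratio of 1.40 (13.7 RPKM in HFD cells, 9.73 RPKM in control cells) and Slc25a34 one of 1.09 with an interval from 0.928 to 1.27 (8.89 RPKM in HFD cells, 8.18 RPKM in control cells). Slc25a46, an outer membrane protein of mitochondrial dynamics, had a ratio of 1.24 (6.13 RPKM in HFD cells, 4.95 RPKM in control cells). Slc25a45 and Slc25a47, a carrier known from liver, were at 0 in HFD cells and at 2.89 and 2.46 RPKM in control cells. Slc25a43, Slc25a48, Slc25a53 and Slc25a54 were at 0 in both, as was the ornithine carrier paralog Slc25a2. In all, 11 of the 71 members were at 0 in both libraries (43.4% of all protein-coding genes), 1 was listed in HFD cells only (2.31%) and 4 in control cells only (7.05%). Because the floor is at 1 RPKM, a gene at 0 can still hold reads.

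Genes that work beside the members were mixed as well. Of 5 ATP synthase assembly genes 3 were higher and none passed 2-fold on the log2(RPKM + 1) scale; the F1 assembly factor Atpaf1 had the highest RPKM ratio, 2.17 at 3.14 RPKM in HFD cells and 1.45 RPKM in control cells. Atpif1, the inhibitor that binds the F1 head, had a ratio of 1.49 (31.8 RPKM in HFD cells, 21.4 RPKM in control cells). Usmg5, a small ATP synthase subunit outside the name rule, was 5.07 times lower (1.38 RPKM in HFD cells, 6.98 RPKM in control cells). Of 15 genes that import and insert carriers 8 were higher, led by the chaperone Timm10 at 74.2 RPKM in HFD cells and 25.2 RPKM in control cells, a ratio of 2.94 (2.54 to 3.43), while Tomm7 was at 0 in HFD cells and 6.32 RPKM in control cells.

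The cristae genes had 5 of 8 higher with a median of 0.43, from 0.79 for the fusion gene Opa1 to -0.64 for Chchd6. The calcium uniporter list had 4 of 6 measured genes higher with a median of 0.22. Its pore gene Mcu stood at 17.6 RPKM in HFD cells and 13.4 RPKM in control cells. Lower were Smdt1, with a ratio of 0.811, and Mcub, at 0 in HFD cells and 2.36 RPKM in control cells. Sideroflexins and carrier homologs split 3 and 3. Among energy transfer kinases 2 of 7 were higher; the mitochondrial creatine kinase Ckmt1 was nearly equal (191 RPKM in HFD cells, 196 RPKM in control cells) and hexokinase Hk2 was 2.49 times lower (3.06 RPKM in HFD cells, 7.63 RPKM in control cells). For comparison, 45 measured complex I subunit genes had a median of 0.02 and 76 mitochondrial ribosomal protein genes one of -0.22, on the same log2(RPKM + 1) scale. Of all measured protein-coding genes 44% were higher. These lists of other genes were not rescaled. Scaling without the 20 most abundant genes moved the median of protein-coding genes by -0.50.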

How the data were processed

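RNA-seq of sorted parietal cells gave 1 library for HFD and 1 for control. Per the labels' protocols, RNA was prepared with an AllPrep kit, treated with DNase I, depleted of ribosomal RNA (RiboMinus) and sequenced on libraries of the Ion Total RNA-Seq type. Per the submitters' processing notes, bedtools 2.25.0 and build mm10 were used; aligner, counting rule, strand use and annotation: not given in the sources used here.

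Deposited values are log2 of RPKM, per the file headers (RPKM) and the values themselves, with genes at or below 1 RPKM listed as 0; they were used unscaled, and a count model was not used, as these tables hold RPKM only. GENCODE M21 (GRCm38, also called mm10) named 36308 of 38087 identifiers. The 2 mitochondrially encoded ATP synthase subunits were not analysed here.

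Differences are HFD minus control on log2(RPKM + 1), which understates those of low genes listed in both libraries. For genes at 0 in 1 library it can overstate them, since 0 stands for any value up to 1 RPKM. Depth came from the spacing of RPKM times length in single-exon genes: 49.7% of 189 low values in the HFD library and 36.6% of 724 in the control library were whole within 0.01 of a read, so read numbers are estimates. Intervals of ratios are exact conditional binomial intervals on those reads; reads without molecular identifiers are not independent. Copies were found with blastn 2.17.0. In all, 20 listed genes touched an exon of 18 members, 19 of them on the opposite strand, so reads may be mixed there.

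Members and lists were chosen with earlier results of these data known. Named by rule were all ATP synthase, Ucp, Mpc and Vdac genes, the 12 most abundant carriers, the 6 highest and 6 lowest ratios with at least 50 estimated reads, and paralogs; the other 11 measured carriers were added after their values were seen. Calculations, with scipy 1.17.1, were tested on simulated data. Pseudocounts, filters, scalings, lengths and pseudogene copies were varied. For 1 measured carrier the values are not reported here; it is included in the counts and medians.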

Additional observations from a re-analysis of the deposited data

How the results depend on the processing

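With 1 library per group no replicate could be left out, and no paired analysis was possible because each group has 1 library. Scaling to totals without the 20 most abundant genes moved the median of protein-coding genes by -0.50 on the log2 scale and turned the medians to -0.44 over all members, -0.43 over carriers and -0.49 over ATP synthase genes; 16 members (8 carriers) were then higher, 3 (2 ATP synthase genes and 1 carrier) over 2-fold higher, and 18 (5 and 12) over 2-fold lower. Role medians turned there to -0.31 (c ring), -0.10 (amino acid carriers), -0.17 (cofactor carriers), -0.043 (carnitine carrier) and -0.42 (unsettled carriers). Scaling to protein-coding totals moved that median by 0.25 and gave 0.39, 0.38 and 0.35 for all members, carriers and ATP synthase, with 12 members (6 carriers) over 2-fold higher and 0 ATP synthase genes over 2-fold lower, and turned the VDAC and carboxylate medians to 0.11 and 0.0389. Removing the trend on exon length gave 0.26, 0.28 and 0.26, with 4 members and 0 ATP synthase genes over 2-fold lower. With copies added after seeing the data the ATP synthase median was 0.25, the peripheral stalk median turned to 0.21 and 0 were over 2-fold lower; without members that have listed copies the median was -0.093, with 3 genes higher, 2 over 2-fold higher, 0 over 2-fold lower, and 5 members over 2-fold higher. Members listed in both numbered 3 (2 carriers) over 2-fold lower, and the uncoupling median turned to 0.16. At a minimum of 5 RPKM these were again 3 and 2, the carrier median was 0.21 and that of calcium-regulated carriers turned to 0.075. With 0 entered as 1 RPKM 4 members (3 carriers) were over 2-fold lower. With no filter the medians of all members and of carriers were 0. A pseudocount of 0.1 RPKM put 2 ATP synthase genes over 2-fold lower. By estimated reads the Slc25a23 share differed by 0.47 percentage points, turned in sign. The direction of 37 of 60 measured members held under all 4 scalings, the length trend included. The median of protein-coding genes was itself -0.61 without the 20 most abundant genes and 0.14 on protein-coding totals. Protein-coding genes past 2-fold were not counted under these scalings. The cause was not tested.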

Other observations

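Introns of Slc25a3 and Atp5b hold the small nucleolar RNA genes that were listed in both libraries within a member; such RNAs are released from spliced introns. Gm24119 (ENSMUSG00000077167, mm10 chromosome 10, 91118291 to 91118536), within an intron of Slc25a3 on the same strand, stood at 5516 RPKM in HFD cells and 19.5 RPKM in control cells, a ratio of 284 (counting interval 213 to 387), where the ratio of Slc25a3 was 0.921. It rested on about 34593 estimated reads in HFD cells and 47.1 in control cells. Of 2 entries in introns of Atp5b, the one with the symbol Mir677 stood at 404 RPKM in HFD cells and 35.0 RPKM in control cells, a ratio of 11.5 (7.68 to 17.8), and Snord59a was 1.64 times lower (1.23 to 2.14; 74.2 RPKM in HFD cells, 121 RPKM in control cells), where Atp5b was 1.55 times lower. None of the 3 touches an annotated exon of its host. These entries are 246 bases or shorter, and RPKM weights short genes; the part of library preparation and fragment size was not tested. They were chosen after their values were seen.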
